A study of Mus musculus with 6 samples.

Results

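The uncoupling proteins are a small family of carriers in the inner mitochondrial membrane, and their 3 genes, *Ucp1*, *Ucp2* and *Ucp3*, were followed here in brown adipose tissue (BAT). The genes were found by symbol among the 47729 genes quantified, and all 3 were present in every mouse and passed the filter on low counts. BAT was taken from wild type male C57BL/6J mice, 3 fed a 45% high-fat diet (HFD) and 3 fed a standard rodent diet, called low-fat diet (LFD), from 6 to 10 weeks of age. The mice were housed singly at room temperature, which is below thermoneutrality for a mouse, and those sequenced were picked from a larger group to span the range of fat mass within each diet. Each library was made from ribosomal RNA-depleted total RNA of the right interscapular pad of a single mouse, so it holds RNA of every cell type in the piece taken.

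UCP1 is the protein that gives brown fat its heat. It lets protons flow back into the mitochondrial matrix without making ATP, it is opened by fatty acids and closed by purine nucleotides, and its gene is switched on through noradrenaline, β-adrenergic receptors and cyclic AMP. UCP2 is found in many tissues and is high in macrophages and lymphocytes, and UCP3 is a protein of skeletal muscle and brown fat. Neither is thought to carry out the heat production of UCP1.

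Between 17156991 and 21603487 rounded counts were available per mouse. A level is given in TPM, the transcript share that is corrected for gene length and may be compared between genes. The diets were compared on rounded counts by edgeR's quasi-likelihood test, which allows for library size, with p-values adjusted over the 17668 genes tested. Log2 counts per library size (CPM) were used to see whether the diets overlapped and which genes varied alike. The call needed both an adjusted p below 0.01 and a log2 fold change beyond 1.5 in size. No gene of the table was called (0%) by this test, beside 1851 genes at an unadjusted p under 0.05 (10.5%). DESeq2 with default settings called 412 genes, and none of them was a *Ucp* gene.

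The 3 genes differ in where they lie and in the sequence before their start. *Ucp1* (ENSMUSG00000031710) lies on chromosome 8 from 83290352 to 83298452 of GRCm38 and has 6 exons. *Ucp3* (ENSMUSG00000032942), on chromosome 7 from 100472990 to 100486432, has 7 exons in its longest coding transcript. *Ucp2* (ENSMUSG00000033685) follows it on the same strand, 6905 bases further on, from 100493337 to 100502020, with 8 exons in its longest coding transcript. The 250 bases before each RefSeq start (GRCm38.p6, forward strand) are shown because the neighbours *Ucp2* and *Ucp3*, and the distant *Ucp1*, differed in how they varied between mice. Capitals mark each match, on either strand, to the TATA-type run TATATA, to the GC box GGGCGG or to the cyclic AMP element core TGACG.

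Ucp1, chr8:83290098-83290347: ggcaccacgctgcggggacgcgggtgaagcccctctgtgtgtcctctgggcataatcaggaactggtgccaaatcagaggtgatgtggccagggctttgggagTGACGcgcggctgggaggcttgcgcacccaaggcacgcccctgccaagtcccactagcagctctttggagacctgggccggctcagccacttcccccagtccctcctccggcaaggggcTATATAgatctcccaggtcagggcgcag
Ucp2, chr7:100493108-100493357: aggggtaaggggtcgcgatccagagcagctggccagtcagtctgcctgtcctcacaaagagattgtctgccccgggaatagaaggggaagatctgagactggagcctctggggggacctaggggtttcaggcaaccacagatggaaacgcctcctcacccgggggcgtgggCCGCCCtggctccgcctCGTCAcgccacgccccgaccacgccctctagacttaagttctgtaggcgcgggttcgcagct
Ucp3, chr7:100472741-100472990: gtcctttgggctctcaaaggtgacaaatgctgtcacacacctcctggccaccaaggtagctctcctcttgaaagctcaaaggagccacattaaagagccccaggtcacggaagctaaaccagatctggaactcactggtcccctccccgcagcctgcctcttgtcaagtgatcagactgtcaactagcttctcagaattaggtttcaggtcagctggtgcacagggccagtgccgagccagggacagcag

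The *Ucp1* window held a TATATA 28 bases before the start, which 5.25% of 32851 promoter windows of this length held, and a TGACG (17.8%). The *Ucp2* window held a GGGCGG (found in 32.7% of windows) and a TGACG, both on the reverse strand, and no TATATA. The *Ucp3* window held none of these letters. No window of the 3 matched TATAA (held by 22.8% of windows) or CCAAT (33.8%) on either strand. None matched CACGTG (6.02%) or TGACGTCA (1.55%), which contains TGACG. CpG dinucleotides numbered 12 in the *Ucp1*, 16 in the *Ucp2* and 3 in the *Ucp3* window, with a median of 6 over all windows. A match is a run of letters and not a site of binding, and the well-studied enhancer of *Ucp1* lies further upstream than this window.

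Reads of the 3 genes could be told apart. The coding sequences of *Ucp2* and *Ucp3* were identical at 75.4% of 915 aligned bases, those of *Ucp1* and *Ucp3* at 63.4% of 917, and those of *Ucp1* and *Ucp2* at 62.3% of 913. The longest run of bases that 2 members shared is printed for each pair to show how far it falls short of a read of 75 bases.

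Ucp2 and Ucp3, coding bases 556 to 579 of Ucp2: AATGCCATTGTCAACTGTGCTGAG
Ucp1 with either of the others, coding bases 277 to 293 of Ucp1: ATTGGCCTCTACGACTC

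These runs were 24 and 17 bases long. No window of 75 bases of a *Ucp1* or *Ucp3* transcript occurred in a transcript of another gene. Of the windows of *Ucp2*, 3.13% also occurred in *Dnajb13*, which runs on the opposite strand and overlaps the end of *Ucp2* by 305 bases. *Dnajb13* had 1.42 to 3.39 TPM in the 6 mice, far below *Ucp2*. The antisense gene *Gm10603*, which overlaps *Ucp3* by 1857 bases, had 1.12 to 2.43 TPM, and whether strand was used in counting is not given in the sources used here.

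*Ucp1* was the member with the widest range of levels, and no LFD-fed mouse reached the lowest HFD-fed one. It stood at 2728, 4021 and 796 TPM in HFD-fed mice 1, 2 and 3 and at 443, 11.03 and 76.0 TPM in LFD-fed mice 1, 2 and 3. The HFD mean of 2515 ± 1623 TPM (SD, n = 3) stood against an LFD mean of 177 ± 233 TPM (SD, n = 3), a ratio of means of 14.2. The highest level was 365 times the lowest. LFD-fed mouse 2 set the lower end, with 241 counts (exact 95% Poisson interval 211.5 to 273.4, for counting error only), so this value was not a matter of few reads.

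**Figure D1:**
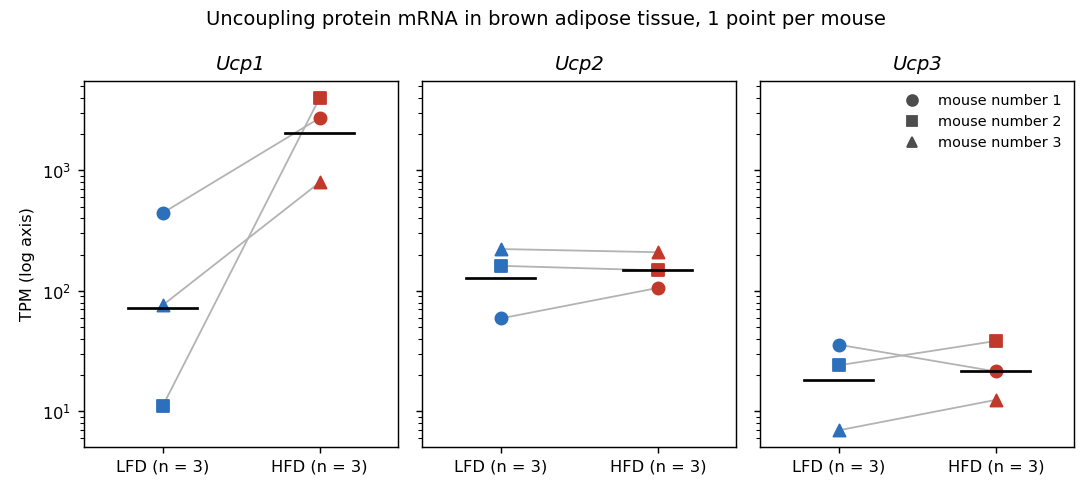
TPM (log axis) of *Ucp1*, *Ucp2* and *Ucp3* in the 3 LFD-fed (blue) and 3 HFD-fed (red) mice, with a marker per mouse number, grey lines between mice of the same number and a black bar at the geometric mean of a diet. The *Ucp1* values of the HFD-fed mice, 796 to 4021 TPM, sit above those of the LFD-fed mice, 11.03 to 443 TPM, whereas the diets overlap for *Ucp2* and *Ucp3*.

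Ranked by TPM among all genes with a value above 0, *Ucp1* was number 26 of 23798 in HFD-fed mouse 1, number 20 of 25089 in HFD-fed mouse 2 and number 93 of 24934 in HFD-fed mouse 3. In LFD-fed mouse 1 it was number 212 of 23175, in LFD-fed mouse 3 number 1731 of 24935 and in LFD-fed mouse 2 number 8462 of 25439. The gene that defines brown adipocytes was therefore among the most abundant genes of all HFD-fed mice and not among those of LFD-fed mouse 2.

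The log2 fold change of *Ucp1* between diets was 3.67 (HFD over LFD, standard error 1.56, 95% interval -0.03 to 7.38), with an adjusted p of 0.480 by edgeR's quasi-likelihood test and an unadjusted edgeR p of 0.0515. The difference did not pass the threshold, and 0 of the 3 members were called. *Ucp1* was the 1 member of 3 whose diets did not overlap. Groups that do not overlap in log2 CPM were common, with 6.72% of all genes tested fully higher and 9.23% fully lower in HFD-fed mice. LFD-fed mouse 1 weighed most on the estimate, which was 6.49 without it (edgeR adjusted p = 0.175, within a range of 0.175 to 0.88 over the fits that left out a mouse). Divided by the LFD-fed mouse of the same number, the *Ucp1* TPM of HFD-fed mice 1, 2 and 3 gave ratios of 6.16, 365 and 10.5.

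The other markers of brown adipocytes set these values in context. Fewer brown adipocytes and less *Ucp1* mRNA in each of them cannot be told apart in whole tissue. *Cidea*, a lipid droplet protein of brown adipocytes, had 468, 734 and 222 TPM in HFD-fed mice 1, 2 and 3 and 222, 18.9 and 38.6 TPM in LFD-fed mice 1, 2 and 3, so it was low in the same 2 mice as *Ucp1*. *Elovl3*, a fatty acid elongase of active brown fat, had 0.71 TPM and the proton channel gene *Otop1* 4.13 TPM in LFD-fed mouse 2, against 5.64 to 62.7 TPM and 27.2 to 71.0 TPM in the HFD-fed mice. LFD-fed mouse 1, at 18.2 and 36.1 TPM, lay within these HFD ranges, so the diets overlapped for both genes. The transcription factor genes *Zic1* and *Lhx8*, which mark classical brown fat, did not follow them. *Zic1* had 5.11 TPM and *Lhx8* 14.8 TPM in LFD-fed mouse 2, above all 3 HFD-fed mice (2.98 to 3.44 and 2.91 to 3.65 TPM). LFD-fed mouse 3 was higher still, at 11.4 and 18.5 TPM. LFD-fed mouse 1 had the least *Zic1*, 1.09 TPM, whereas its *Lhx8*, 6.37 TPM, was also above all 3 HFD-fed mice. *Lhx8* was thus lower in HFD-fed mice without overlap between diets (log2 fold change -1.43, edgeR adjusted p = 0.241).

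Of the 10 brown adipocyte markers, 2 were higher and 1 lower in HFD-fed mice at an unadjusted edgeR p under 0.05, beside 3.86% of all genes higher and 6.62% lower. The 2 higher were *Prdm16* and *Dio2*, and the lower was *Lhx8*. None was called, and their median log2 fold change was 1.45, against -0.05 over all genes tested. The diets overlapped in log2 CPM for 8 of the 10, beside 14850 of all 17668 genes. The number of higher markers was 0 without LFD-fed mouse 2 or HFD-fed mouse 2 and 1 without LFD-fed mouse 3 or HFD-fed mouse 1. It was 3 without HFD-fed mouse 3 and 7 without LFD-fed mouse 1. Of all 18190 to 18473 genes tested in these fits, 487 were higher and 814 lower at that p without LFD-fed mouse 2. The numbers were 397 and 734 without HFD-fed mouse 2, 1405 and 1741 without LFD-fed mouse 3, and 691 and 1087 without HFD-fed mouse 1. They were 1106 and 1521 without LFD-fed mouse 1 and 396 and 710 without HFD-fed mouse 3. The counts of the other lists with a mouse left out stand beside these same numbers. With the replicate number as a block, 6 markers were higher and 1 lower (smallest adjusted p = 0.0522 by edgeR). In that fit 1546 of all 17668 genes were higher and 1548 lower at that unadjusted p, against 682 and 1169 without the block.

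Markers of adipocytes in general ran the other way in part of the mice. *Adipoq*, the adiponectin gene, had 640, 689 and 388 TPM in HFD-fed mice 1, 2 and 3 and 1823, 2015 and 470 TPM in LFD-fed mice 1, 2 and 3. Of 7 general adipocyte markers, 0 were higher and 0 lower at an unadjusted edgeR p under 0.05, with a median log2 fold change of -0.78, and 2 were lower without LFD-fed mouse 3. LFD-fed mouse 2 had the most *Adipoq* and the least *Ucp1* of all mice. The other general adipocyte markers were all highest in LFD-fed mouse 1. The summed TPM of the 7 markers was 15350 in LFD-fed mouse 1 and 13770 in LFD-fed mouse 2. The ratio of *Ucp1* to *Adipoq* TPM was 4.26, 5.84 and 2.05 in HFD-fed mice 1, 2 and 3 and 0.243, 0.00548 and 0.162 in LFD-fed mice 1, 2 and 3.

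Skeletal muscle RNA also moved with the diets. The summed TPM of 20 skeletal muscle markers was 54.4, 223 and 16.3 in HFD-fed mice 1, 2 and 3 and 6081, 14480 and 2087 in LFD-fed mice 1, 2 and 3. All 20 were lower in HFD-fed mice at an unadjusted edgeR p under 0.05, beside 6.62% of all genes. None was called, and the smallest edgeR adjusted p among them was 0.170. An edgeR adjusted p under 0.05 was reached by 17 of the 20 with the replicate number as a block (smallest 0.0102) and by 9 without LFD-fed mouse 3 (smallest 0.0283). Over all genes it was reached by 184 of 17668 with the block and by 222 of 18236 without LFD-fed mouse 3. LFD-fed mouse 2 had the highest sum. The share of counts on the mitochondrial genome was 22.7%, 16.5% and 8.50% in HFD-fed mice 1, 2 and 3 and 13.8%, 9.12% and 3.87% in LFD-fed mice 1, 2 and 3. With 219 mitochondrial and ribosomal RNA genes left out, the log2 fold change of *Ucp1* was 3.64. The part of muscle RNA in the *Ucp1* difference was not tested.

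Set against the mean log2(TPM + 1) of the 10 brown adipocyte markers, of which *Cox7a1* and *Cox8b* are expressed in striated muscle too, *Ucp1* stood at 5.91, 6.07 and 5.01 in HFD-fed mice 1, 2 and 3 and at 3.97, -0.21 and 2.44 in LFD-fed mice 1, 2 and 3. The HFD-fed mice were again all higher, by 3.59 on average (exact two-sided permutation p = 0.1, the smallest that 3 mice against 3 allow, adjusted p = 0.225 over 9 such tests). Set against 7 general adipocyte markers, a list tried after the data were seen, the difference was 5.37 (exact permutation p = 0.1, adjusted p = 0.225). With either list, no LFD-fed mouse reached the lowest HFD-fed one.

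**Figure D2:**
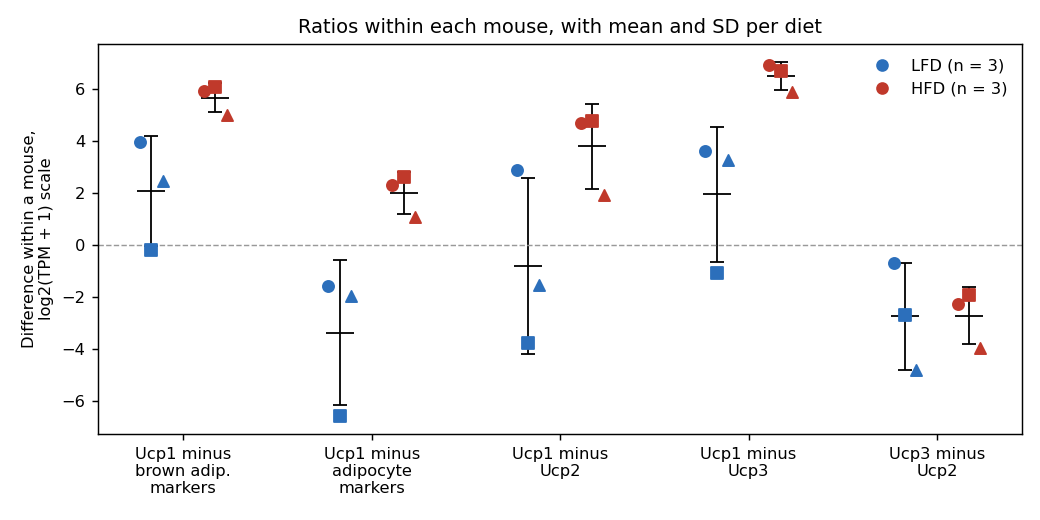
Log2(TPM + 1) of one gene minus that of another gene or of the mean of a marker list in the same mouse, with a point per mouse (blue LFD, red HFD; markers give the mouse number) and the mean and SD of each diet. *Ucp1* minus the brown adipocyte markers lies between 5.01 and 6.07 in HFD-fed and between -0.21 and 3.97 in LFD-fed mice, while *Ucp3* minus *Ucp2* overlaps.

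The diets overlapped for *Ucp2*, which varied least of the 3 genes. It had 106, 148 and 209 TPM in HFD-fed mice 1, 2 and 3 and 59.0, 161 and 222 TPM in LFD-fed mice 1, 2 and 3. The lowest and the highest value both came from LFD-fed mice, and they differed 3.77-fold. The HFD mean of 154 ± 52.1 TPM (SD, n = 3) stood against an LFD mean of 148 ± 82.6 TPM (SD, n = 3). Its log2 fold change was 0.41 (standard error 0.33, 95% interval -0.37 to 1.18, edgeR adjusted p = 0.758). A log2 fold change above 1.18 or below -0.37 thus lay outside the interval. Set against the brown adipocyte markers, *Ucp2* differed by -0.99 on the log2(TPM + 1) scale (HFD minus LFD), with overlap (exact permutation p = 0.4, adjusted p = 0.514).

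UCP2 is made by macrophages, and 2 of 12 macrophage markers, *Lyz2* and *C1qb*, put the 6 mice in the order of *Ucp2*, whereas the other 10 did not. From low to high, both *Ucp2* and *Lyz2*, the lysozyme gene of macrophages, ran LFD-fed mouse 1, HFD-fed mouse 1, HFD-fed mouse 2, LFD-fed mouse 2, HFD-fed mouse 3 and LFD-fed mouse 3. *Lyz2* had 1115, 1213 and 2264 TPM in HFD-fed mice 1, 2 and 3 and 252, 1279 and 2755 TPM in LFD-fed mice 1, 2 and 3. *Adgre1*, the F4/80 antigen gene, had 70.0, 91.7 and 160 TPM in HFD-fed mice 1, 2 and 3 and 10.6, 64.2 and 92.2 TPM in LFD-fed mice 1, 2 and 3, so it was highest in HFD-fed mouse 3. The summed TPM of the 12 markers had the order of *Ucp2*, from 664 in LFD-fed mouse 1 to 4727 in LFD-fed mouse 3, but *Lyz2* made up 38% to 58.3% of it. The sum without *Lyz2*, computed after the data were seen, did not have that order, with 2042 TPM in HFD-fed mouse 3 above 1973 TPM in LFD-fed mouse 3. Of these 12 markers, 3 were higher and 1 lower in HFD-fed mice at an unadjusted edgeR p under 0.05, with a median log2 fold change of 0.50. Over all genes tested, 3.86% were higher and 6.62% lower. The number of these markers higher was 0 without HFD-fed mouse 3, 1 without HFD-fed mouse 2 or LFD-fed mouse 2, and 5 without LFD-fed mouse 3. In those fits 396, 397, 487 and 1405 of all genes were higher. Lymphocyte markers had smaller TPM sums than the macrophage markers in every mouse, with 1.99 to 48.2 TPM for T and NK cells and 0.62 to 5.12 TPM for B cells. Of the 11 T and NK cell markers tested, 8 were higher and 0 lower in HFD-fed mice at an unadjusted edgeR p under 0.05. The shares over all genes were 3.86% higher and 6.62% lower. The number of T and NK cell markers higher was 7 without HFD-fed mouse 1 or HFD-fed mouse 2. It was 10 of 12 tested without LFD-fed mouse 2 and 8 without any other mouse, with 0 lower in each fit. With the replicate block 8 were higher and 0 lower, beside 1546 and 1548 of all 17668 genes. None of the 3 B cell or 4 endothelial markers tested had an unadjusted edgeR p under 0.05, with median log2 fold changes of 0.33 and 0.76, but 2 endothelial markers were higher without HFD-fed mouse 1 and 1 without LFD-fed mouse 1. The part of macrophage RNA in the *Ucp2* level was not tested.

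*Ucp3* was the least abundant member in 5 of 6 mice, and the diets overlapped. It had 21.4, 38.3 and 12.4 TPM in HFD-fed mice 1, 2 and 3 and 35.7, 24.1 and 6.95 TPM in LFD-fed mice 1, 2 and 3. The HFD mean of 24.1 ± 13.2 TPM (SD, n = 3) stood against an LFD mean of 22.2 ± 14.5 TPM (SD, n = 3). The log2 fold change was 0.10 (standard error 0.78, 95% interval -1.76 to 1.97, edgeR adjusted p = 0.984), and its sign turned with the mice included, from -0.38 without LFD-fed mouse 3 to 1.12 without LFD-fed mouse 1.

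*Ucp3* is a gene of skeletal muscle as well as of brown fat, and its order among the 6 mice was not that of the muscle markers. *Acta1*, the skeletal α-actin gene, had 8.30, 37.9 and 0.68 TPM in HFD-fed mice 1, 2 and 3 and 872, 2336 and 486 TPM in LFD-fed mice 1, 2 and 3. The highest *Ucp3* was found in HFD-fed mouse 2, whose *Acta1* was below that of every LFD-fed mouse, and the lowest in LFD-fed mouse 3. Within the HFD-fed mice, *Ucp3* had the order of *Acta1*, and LFD-fed mouse 3 was the lowest LFD-fed mouse for both. The part of muscle RNA in the *Ucp3* level was not tested. Set against the brown adipocyte markers, *Ucp3* was 0.97 lower in HFD-fed mice (exact two-sided permutation p = 0.2, adjusted p = 0.3 over 9 tests). Set against the general adipocyte markers it was 0.81 higher, in all 3 HFD-fed mice above all 3 LFD-fed mice (exact permutation p = 0.1, adjusted p = 0.225), so the direction turned with the list.

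The make-up of the family differed between mice. *Ucp1* made up 95.6%, 95.6% and 78.2% of the summed TPM of the 3 genes in HFD-fed mice 1, 2 and 3 and 82.4%, 5.61% and 24.9% in LFD-fed mice 1, 2 and 3. In all HFD-fed mice and in LFD-fed mouse 1, the order from high to low was *Ucp1*, *Ucp2*, *Ucp3*. In LFD-fed mouse 3 it was *Ucp2*, *Ucp1*, *Ucp3*, and in LFD-fed mouse 2 it was *Ucp2*, *Ucp3*, *Ucp1*. *Ucp2* alone held 82.1% of the pool in LFD-fed mouse 2 and 72.9% in LFD-fed mouse 3.

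**Figure D3:**
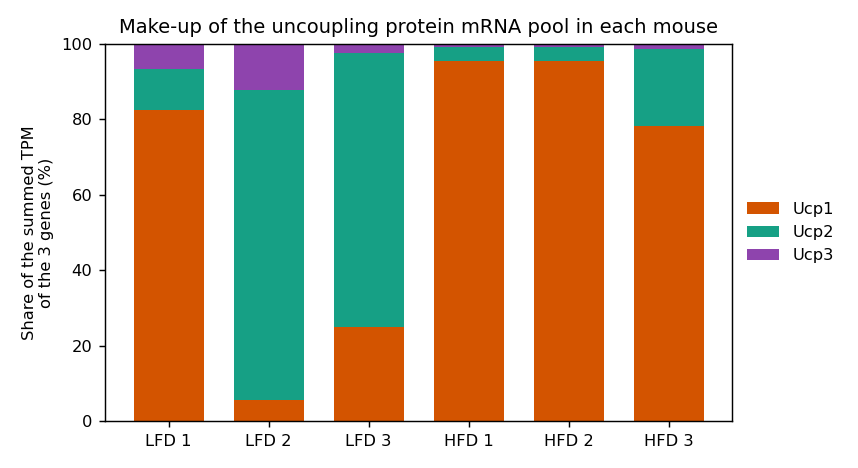
Share (%) of *Ucp1* (orange), *Ucp2* (green) and *Ucp3* (purple) in the summed TPM of the 3 genes, with a bar per mouse. *Ucp1* fills 78.2% to 95.6% of the bar in HFD-fed mice and 5.61% to 82.4% in LFD-fed mice.

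A ratio of 2 members within a mouse compares genes of the same library. On the log2(TPM + 1) scale, *Ucp1* minus *Ucp3* was 6.93, 6.68 and 5.89 in HFD-fed mice 1, 2 and 3 and 3.6, -1.06 and 3.28 in LFD-fed mice 1, 2 and 3. It was higher in all HFD-fed mice, by 4.56 on average (exact two-sided permutation p = 0.1, the smallest possible, adjusted p = 0.225). *Ucp1* minus *Ucp2* was 4.59 higher on average, with LFD-fed mouse 1 (2.89) above HFD-fed mouse 3 (1.92), so the diets overlapped (exact permutation p = 0.2, adjusted p = 0.3). For *Ucp3* minus *Ucp2* the HFD mean was -2.71 ± 1.10 (SD, n = 3) and the LFD mean -2.74 ± 2.05 (SD, n = 3) (exact permutation p = 1.0).

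The signal that turns *Ucp1* on runs from noradrenaline receptors over G protein and adenylyl cyclase to protein kinase A. Of 10 genes of this chain, 2 were higher and 0 lower in HFD-fed mice at an unadjusted edgeR p under 0.05. Over all genes tested, 3.86% were higher and 6.62% lower. None of the 10 was called, and their median log2 fold change was -0.06. Without LFD-fed mouse 2 or HFD-fed mouse 2, 1 was higher and 0 were lower. Without HFD-fed mouse 3, 3 were higher and 0 lower, and without LFD-fed mouse 3, 2 were higher and 1 lower. *Adrb3*, the main β-adrenergic receptor of adipocytes, had 50.7, 69.6 and 44.5 TPM in HFD-fed mice 1, 2 and 3 and 94.5, 108 and 16.7 TPM in LFD-fed mice 1, 2 and 3. LFD-fed mouse 2, with the least *Ucp1*, had the most *Adrb3*. *Adcy3*, an adenylyl cyclase, had 50.4, 205 and 43.3 TPM in HFD-fed mice 1, 2 and 3 and 15.3, 12.7 and 23.2 TPM in LFD-fed mice 1, 2 and 3 (log2 fold change 2.2, edgeR adjusted p = 0.236). *Adrb1*, another β-adrenergic receptor, had a log2 fold change of 1.71 (edgeR adjusted p = 0.350), without overlap between diets.

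Of 17 transcription factors, cofactors and hormone genes that act on *Ucp1*, 4 were higher and 2 lower at an unadjusted edgeR p under 0.05, with a median log2 fold change of 0.25. *Prdm16* and *Dio2*, counted above as brown adipocyte markers, are among these 4, so the 2 lists are not separate. *Ebf2* is shared with the brown adipocyte list too, and *Pparg* with the general adipocyte list. Over all genes tested, 3.86% were higher and 6.62% lower. *Ppara*, a nuclear receptor for fatty acids, had 48.8, 77.4 and 26.4 TPM in HFD-fed mice 1, 2 and 3 and 15.4, 7.82 and 4.48 TPM in LFD-fed mice 1, 2 and 3 (log2 fold change 2.56, edgeR adjusted p = 0.351). *Prdm16*, which keeps brown adipocyte identity, had 5.08 to 12.3 TPM in HFD-fed and 3.22 to 3.79 TPM in LFD-fed mice (1.3, edgeR adjusted p = 0.351). *Ppargc1a*, the coactivator PGC-1α, had 11.2, 16.01 and 6.48 TPM in HFD-fed mice 1, 2 and 3 and 4.08, 7.45 and 1.84 TPM in LFD-fed mice 1, 2 and 3, with overlap. *Pparg* and *Ebf2*, which set up the adipocyte and brown adipocyte programmes, had log2 fold changes of 0.02 and 0.22. *Rxra*, the partner of several of these receptors, was lower (-1.11, edgeR adjusted p = 0.397).

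These counts moved with the mice included, and those over all genes moved too. Of the 17 transcription genes, the number higher was 0 without LFD-fed mouse 2, 1 without HFD-fed mouse 2 and 2 without HFD-fed mouse 1 or LFD-fed mouse 3. It was 5 without HFD-fed mouse 3 and 6 without LFD-fed mouse 1. With the replicate number as a block, 7 were higher and 3 lower (smallest adjusted p = 0.0540 by edgeR), beside 1546 higher and 1548 lower of all 17668 genes in that fit. Of the 5 genes known to repress *Ucp1*, 1 was lower at an unadjusted edgeR p under 0.05 and 0 were higher. Over all genes tested, 6.62% were lower and 3.86% higher. For the 5 genes the median log2 fold change was -0.17. The number lower was 2 without HFD-fed mouse 1 or with the replicate block and 0 without HFD-fed mouse 2, HFD-fed mouse 3 or LFD-fed mouse 2, and without LFD-fed mouse 3, 1 was higher and 1 lower. The gene lower with all mice was *Nrip1*, a corepressor of nuclear receptors, with 10.4 to 11.2 TPM in HFD-fed and 21.98 to 53.9 TPM in LFD-fed mice (log2 fold change -1.43, edgeR adjusted p = 0.355, overlapping in log2 CPM).

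Fatty acids both feed and open UCP1. At an unadjusted edgeR p under 0.05, 3.86% of all genes tested were higher and 6.62% lower. Of 16 genes of lipolysis and fatty acid supply, 2 were higher and 0 lower at that p, with a median log2 fold change of -0.11. These 2 were *Fabp3*, a fatty acid binding protein, with 556, 679 and 202 TPM in HFD-fed mice 1, 2 and 3 and 60.2, 79.0 and 26.6 TPM in LFD-fed mice 1, 2 and 3 (log2 fold change 3.32, edgeR adjusted p = 0.200), and *Cpt1b*, which admits fatty acids to mitochondria (2.48, edgeR adjusted p = 0.409). The lipases *Pnpla2* and *Lipe* had log2 fold changes of -0.57 and -0.80, and overlapped. The number higher was 6 without LFD-fed mouse 1, 3 without HFD-fed mouse 3 and 1 without LFD-fed mouse 2, HFD-fed mouse 1 or HFD-fed mouse 2. Without LFD-fed mouse 3, 2 were higher and 1 lower. With the replicate number as a block 5 were higher and 1 lower, beside 1546 and 1548 of all 17668 genes. In that block fit, *Fabp3* had an edgeR adjusted p of 0.0107. *Pnpla2*, *Lipe*, *Plin1* and *Fabp4* of this list are general adipocyte markers too.

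**Figure D4:**
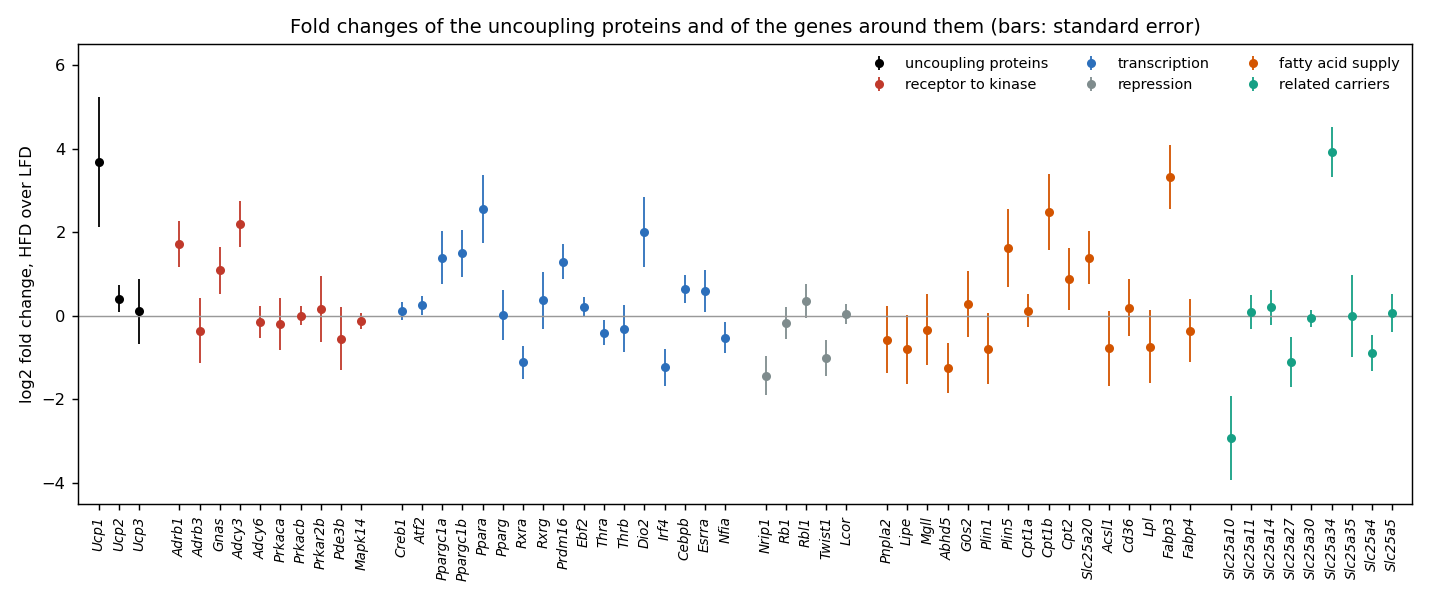
Log2 fold change (HFD over LFD) with its standard error for the 3 uncoupling proteins and for the tested genes of the receptor, transcription, repression, fatty acid and carrier lists, coloured by list. *Ucp1* (3.67), *Slc25a34* (3.93) and *Fabp3* (3.32) lie highest and *Slc25a10* (-2.92) lies lowest, and edgeR called no gene.

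The uncoupling proteins belong to the mitochondrial carrier family, and 10 related carriers were examined, 9 of which were tested (*Slc25a31* was too low, at 0.03 to 0.10 TPM). At an unadjusted edgeR p under 0.05, 1 was higher and 1 lower, beside 3.86% and 6.62% of all genes tested. The median log2 fold change of the 9 carriers was -0.01. The number lower was 0 without HFD-fed mouse 2, HFD-fed mouse 3 or LFD-fed mouse 1 and 2 without LFD-fed mouse 3 or with the replicate block. *Slc25a34*, a carrier of unsettled function, had 22.8, 40.0 and 10.1 TPM in HFD-fed mice 1, 2 and 3 and 1.65, 2.27 and 1.71 TPM in LFD-fed mice 1, 2 and 3. Its log2 fold change of 3.93 was about that of *Ucp1*, while its standard error was 0.60 against 1.56 (edgeR adjusted p = 0.170, and 0.0285 with the replicate number as a block). *Slc25a10*, the dicarboxylate carrier, had 37.1, 20.1 and 18.9 TPM in HFD-fed mice 1, 2 and 3 and 344, 206 and 46.3 TPM in LFD-fed mice 1, 2 and 3 (-2.92, edgeR adjusted p = 0.388). The adenine nucleotide translocases *Slc25a4* and *Slc25a5*, which also leak protons, had log2 fold changes of -0.89 and 0.07. Of the carriers once named UCP4 and UCP5, *Slc25a27* stayed at 0.26 to 2.19 TPM and *Slc25a14* at 1.01 to 4.88 TPM.

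The genes whose log2 CPM was most like that of each member over the 6 mice were looked up among 10279 genes with a mean log2 CPM of at least 3, as a description with no test, since all values of a mouse share its library and scaling. For *Ucp1* they were *Tecpr2* (Pearson r = 0.997), *Slc27a2* (0.995), *Zfp180* (0.994), *Pfkp* (0.988) and *Kng2* (0.987). Only *Slc27a2*, a fatty acid transport protein, and *Kng2*, a kininogen, spanned a like range, with 6.78 and 8.28 log2 units between the lowest and the highest mouse against 8.85 for *Ucp1*. *Kng2* had 56.0, 61.9 and 13.7 TPM in HFD-fed mice 1, 2 and 3 and 9.52, 0.23 and 0.61 TPM in LFD-fed mice 1, 2 and 3. *Tecpr2* and *Zfp180* spanned 0.64 and 0.57 log2 units, and on the log2(TPM + 1) scale their r with *Ucp1* was -0.004 and -0.262.

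For *Ucp2* the most similar genes were *Tlr7* (r = 0.999), *B4galt6* (0.997), *Syk* (0.996), *Bin2* (0.995) and *Snx5* (0.994), and r stayed between 0.961 and 0.998 on the log2(TPM + 1) scale. *Tlr7*, *B4galt6* and *Snx5* spanned 1.69, 1.45 and 1.08 log2 units, against 1.36 for *Ucp2*, while *Syk* and *Bin2* spanned 2.51 and 4.17. *Tlr7*, a receptor for single-stranded RNA in innate immune cells, had 9.95, 17.7 and 25.3 TPM in HFD-fed mice 1, 2 and 3 and 6.48, 19.7 and 29.3 TPM in LFD-fed mice 1, 2 and 3. *Syk* is a kinase of immune receptors. For *Ucp3* they were *Ppp1r3c* (0.999), *Acacb* (0.999), *Hibch* (0.998), *Abhd6* (0.995) and *Stard7* (0.994). *Stard7* spanned 1.51 log2 units against 3.2 for *Ucp3*, and its r on the log2(TPM + 1) scale was 0.88. The r of the other genes stayed between 0.99 and 0.999 on that scale. *Ppp1r3c*, a glycogen-targeting subunit of protein phosphatase 1, had 33.7, 63.6 and 16.8 TPM in HFD-fed mice 1, 2 and 3 and 56.8, 35.5 and 9.65 TPM in LFD-fed mice 1, 2 and 3. *Acacb* encodes the acetyl-CoA carboxylase at mitochondria and had 73.7, 140 and 39.1 TPM in HFD-fed mice 1, 2 and 3 and 155, 86.5 and 18.1 TPM in LFD-fed mice 1, 2 and 3.

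**Figure D5:**
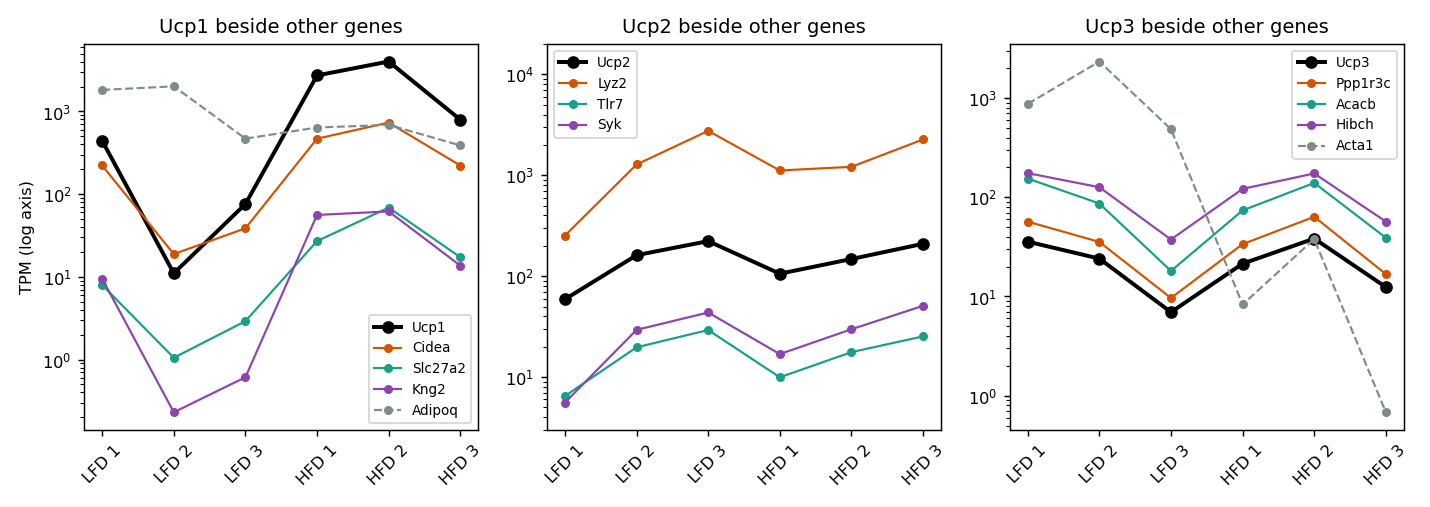
TPM (log axis) in each mouse of *Ucp1*, *Ucp2* and *Ucp3* (black) and of genes set beside them, with lines joining the values of a gene. *Ucp1* runs with *Cidea*, *Slc27a2* and *Kng2* and apart from *Adipoq* (dashed), *Ucp2* has the order of mice of *Lyz2* and *Tlr7* and lies between *Lyz2* and *Syk* in every mouse, and *Ucp3* runs with *Ppp1r3c*, *Acacb* and *Hibch* and apart from *Acta1* (dashed).

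*Elmod2*, 14180 bases after *Ucp1*, had 10.4, 17.3 and 17.4 TPM in HFD-fed mice 1, 2 and 3 and 19.1, 26.9 and 20.5 TPM in LFD-fed mice 1, 2 and 3, and *Tbc1d9*, 17418 bases before it, had 1.70 to 13.0 TPM. *C2cd3*, which ends 2838 bases before *Ucp3*, had 6.61 to 14.0 TPM, with overlapping diets.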

How the data were processed

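RNA-Seq was performed on BAT of 3 HFD-fed and 3 LFD-fed mice, grouped and numbered by their labels. Single-end 75-base reads were trimmed by the authors in Trimmomatic 0.36 and assigned to genes of the Ensembl annotation of GRCm38.p4 in RSEM 1.3.0, and strand handling is not given in the sources used here. They deposited, for 47729 genes in each mouse, expected counts, which are not normalized, and TPM values scaled to a fixed total. The deposited effective length (another RSEM column) and the posterior standard deviation of the count were read too, and the latter was at most 2.35 counts for the 3 genes.

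Expected counts were rounded and tested in R 4.3.3 with edgeR 4.0.16 (quasi-likelihood test, TMM, edgeR's filter on low counts, Benjamini-Hochberg adjustment). Log2 CPM used a prior count of 2 and log2 TPM a pseudocount of 1. A fold change on the log2(TPM + 1) scale understates that of low genes. Ratios were compared by exact permutation. Alternatives were DESeq2 1.42.0 (with and without a prior on fold changes), RLE factors, other filters, limma 3.58.1 on TPM, a replicate block and leaving out each mouse. The fits were tested on simulated data. Mice of the same diet were no repeated libraries (chi-square per degree of freedom 71.7 to 558).

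Same-numbered mice deviated together from their diet means (r = 0.498, 0.229 and 0.522 across 17668 genes for numbers 1, 2 and 3). This pairing is taken from the label numbers and these data, and the sources used here do not say what a number stands for. The r between mice of different numbers is not given, so whether this matching stands out was not tested. The results with the replicate block rest on it.

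The 3 members and the gene and marker lists were chosen with earlier results of these data known. Named genes are the members, the genes of these lists, the 5 genes most like each member in log2 CPM and their annotated neighbours. Positions come from GENCODE M21 (GRCm38) and promoter sequences from RefSeq, in which all 3 genes were matched. One gene of the receptor list is not reported here and enters none of that list's counts.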

Additional observations from a re-analysis of the deposited data

How the results depend on the processing

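No alternative called a *Ucp* gene. The log2 fold change of *Ucp1* was positive in all settings, with 3.65 by DESeq2 with default settings (adjusted p = 0.0559), 1.95 with DESeq2's prior on fold changes (adjusted p = 0.0784), 4.79 by limma on log2(TPM + 1) (adjusted p = 0.204) and 3.10 to 6.49 with a mouse left out. That of *Ucp2* was 0.15 to 0.64 with a mouse left out. That of *Ucp3* was negative without HFD-fed mouse 1 (-0.056), HFD-fed mouse 2 (-0.19), LFD-fed mouse 2 (-0.055) or LFD-fed mouse 3 (-0.38), within a range of -0.38 to 1.12, and the cause was not tested.

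In the edgeR fit with a replicate block, the log2 fold change was 4.66 (adjusted p = 0.202) for *Ucp1*, 0.46 (0.408) for *Ucp2* and 0.46 (0.607) for *Ucp3*, with 0 genes called and 184 at an adjusted p under 0.05, and it changed no call of a member. In same-numbered pairs, the exact sign-flip test gave p = 0.25 for *Ucp1* over *Ucp3*, the smallest that 3 pairs allow.

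DESeq2 called 412 genes, DESeq2 with its prior 395, and limma on log2(TPM + 1) 1 gene (*Rnu3a*), against 0 by edgeR. The cause was not tested. *Ucp3* over *Ucp2* was -0.0037 in log2 CPM and ranged from -1.01 to 1.04 with a mouse left out, with -0.21 without HFD-fed mouse 1, -0.37 without HFD-fed mouse 2 and -1.01 without LFD-fed mouse 3. With general adipocyte in place of brown adipocyte markers, the differences of *Ucp2* and *Ucp3* were 0.79 and 0.81 where they had been -0.99 and -0.97. Of 116 values under alternatives, 10 changed sign and 3, all numbers of genes called, moved from 0. For the other 103, ratios and fold changes kept their sign, and the number of genes called stayed at 0. Only the fold changes of members were also held against the threshold for a call, which none passed. With 3 mice a diet no permutation test can go below p = 0.1. The lowest count of a member was 187.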
